A study of Mus musculus with 40 samples.

Results

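Ribosome assembly genes were followed in the kidney that remains after the other one has been removed. The list holds 36 genes of RNA polymerase I, the small nucleolar ribonucleoproteins (snoRNPs) and the assembly of both ribosomal subunits. It was given as a list of gene names with no cutoff on measured values, but it was put together with earlier results of these data known. All 36 were found among the 28467 genes of the bulk table and among the 32285 genes of the nucleus table, and all 36 passed the filter on low counts at each bulk time point.

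All animals were male C57BL/6 mice of 8 to 12 weeks, and the right kidney was studied. Unilateral nephrectomy (UNx) removed the left kidney; sham surgery was the same operation with both kidneys left in place. Bulk RNA-seq covered 6 sham and 6 UNx mice at each of 24, 48 and 72 h, the 24 h libraries in labelled batch 1 and the later ones in batch 2. Nuclei were sequenced from 2 other sham and 2 other UNx mice at 24 h. Replicate 1 of each nucleus group was in batch 3 and replicate 2 in batch 4. In the bulk data 24 h and batch 1 cannot be told apart, but within a time point both surgeries carry the same batch label.

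Ribosomes are built in the nucleolus. RNA polymerase I transcribes the long ribosomal RNA precursor, snoRNPs guide its methylation and pseudouridylation, and assembly factors fold and cut it while ribosomal proteins join. Growing cells need more ribosomes, and mTORC1 and Myc are known regulators of this programme. The kidney left after nephrectomy enlarges mainly by growth of its tubule cells, which is the reason to look at these genes here. The mRNA levels given below are not a measure of ribosome output.

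Myc and its partner Max bind the E-box CACGTG, so the promoter windows that hold these letters are shown first. RefSeq promoters of GRCm38.p6 (250 bases before to 50 after each start) were listed for 31 of the 36 genes. The motif was searched as CACGTG, which reads the same on both strands. It was found in 7 of these 31 genes (22.6%) and in 8.09% of the 27025 genes with a listed promoter. Each line gives 30 bases 5′ to 3′ on the gene's strand, with the motif in capitals.

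Nop2 (chr6:125131811-125131840): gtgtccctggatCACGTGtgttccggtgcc

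Rrn3, upstream motif (chr16:13780472-13780501): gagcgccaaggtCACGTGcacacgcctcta

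Rrn3, motif near the start (chr16:13780639-13780668): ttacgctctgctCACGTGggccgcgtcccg

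Pes1 (chr11:3963965-3963994): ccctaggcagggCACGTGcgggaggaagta

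Wdr43 (chr17:71616220-71616249): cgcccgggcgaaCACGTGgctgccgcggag

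Tsr1 (chr11:74898092-74898121): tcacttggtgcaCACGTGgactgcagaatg

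Ltv1 (chr10:13193092-13193121): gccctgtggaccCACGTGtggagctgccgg

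The seventh gene, Utp20, holds the motif too close to the end of its listed window for the same 30 bases to be shown. Ltv1 lies on the minus strand and the other genes shown lie on the plus strand. The motif began 60 bases before the start of Nop2, and 215 and 48 bases before that of Rrn3. In Pes1, Wdr43, Tsr1 and Ltv1 it lay just inside the transcript, from base 3, 18, 25 and 29. At 24 h, 4 of the 7 genes with the motif were higher in UNx and 1 was lower, against 8 and 2 of the 24 without it. Over all genes 14.2% were higher and 13.1% lower at that time. At 48 h the counts were 1 and 1 of 7 with the motif and 5 and 6 of 24 without it, beside 16.9% and 16.0% of all genes. A match is a string of letters, and binding of any factor was not measured.

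Bulk libraries held 14.9 to 24.1 M estimated counts. Levels are given as counts per M of the TMM-scaled library (CPM), calls are those with p under 0.05 after Benjamini-Hochberg adjustment over all genes in edgeR's quasi-likelihood test, and fold changes are UNx over sham. The libraries also differed in a way that crosses the groups. A score from pseudogenes places each library between the later shams (0) and the 24 h shams (1). It ran from 0.958 to 1.04 in 24 h shams and from 0.674 to 0.884 in 24 h UNx libraries. At 48 h it was -0.0419 to 0.0618 in shams, 0.640 to 0.717 in UNx replicates 1 to 5 and 0.00628 in UNx replicate 6. At 72 h it was -0.0548 to 0.0484 in shams and -0.0336 to 0.0947 in UNx. Mitochondrially encoded genes took 21.5 to 26.7% of counts in the 24 h libraries, 14.0 to 15.5% in 48 h shams and 13.6 to 16.1% at 72 h. UNx replicates 1 to 5 of 48 h had 25.8 to 26.4% and replicate 6 had 15.2%. In both measures replicates 1 to 5 thus stood apart from all other libraries labelled batch 2 and were nearer to the 24 h libraries. Whether their labels or handling differ was not tested, and every 48 h difference below sets 6 UNx libraries, these 5 among them, against shams of another profile. Results at 24 and 48 h are therefore given also with this score in the fit.

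At 24 h, 17 of the 36 assembly genes differed, 14 higher and 3 lower in UNx, which is 47.2% of the list where 27.3% of the 14104 genes tested were called. In the higher direction it was 14 of 36 beside 14.2% of all genes, and in the lower direction 3 of 36 beside 13.1%. The median log2 fold change of the list was 0.14, against 0.01 over all genes tested. At 48 h, 14 of 36 differed, 7 higher and 7 lower, or 38.9% of the list beside 32.9% of 14280 genes (16.9% higher, 16.0% lower). With DESeq2 size factors the split at 48 h was 8 higher and 4 lower. The list's median was -0.00 at 48 h and that of all genes -0.04. At 72 h none of the 36 was called in edgeR, while 1.71% of 14556 genes were (1.21% higher, 0.502% lower). At that time 30 of 36 fold changes were positive, with a median of 0.07 beside -0.004 over all genes tested. An unadjusted p under 0.05 was reached by 7 of the 36 at 72 h, beside 2515 of the 14556 genes. DESeq2 and limma voom each called 1 of the 36, beside 673 and 809 of all genes.

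**Figure D1:**
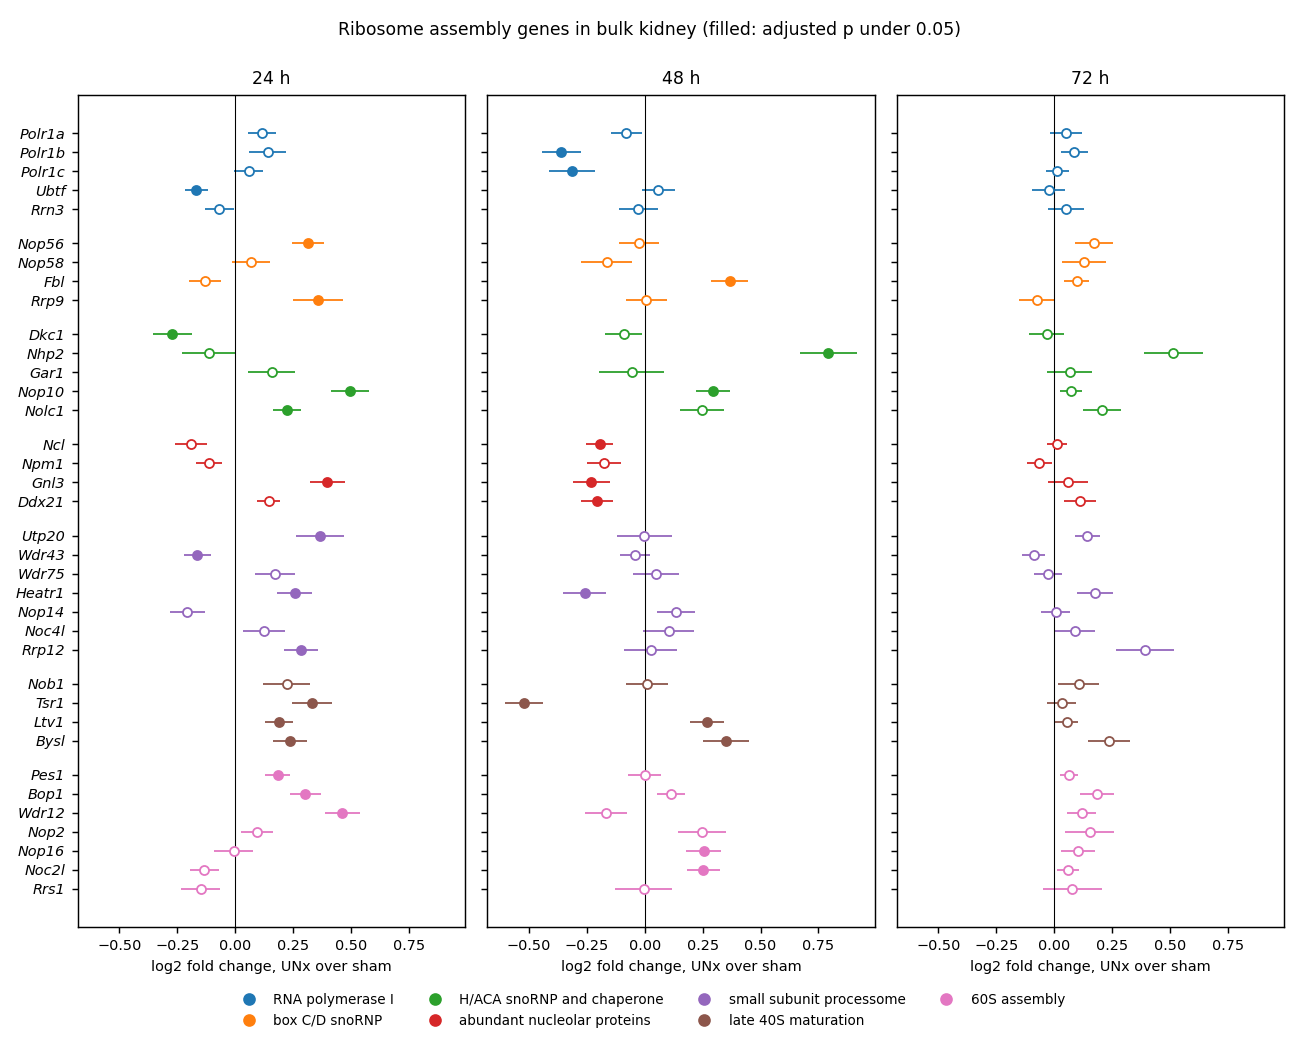
Log2 fold change of UNx over sham (x axis) with its standard error for the 36 ribosome assembly genes (y axis), in 3 panels for 24, 48 and 72 h with 6 mice per group. Colours give the role, and filled points have an adjusted p under 0.05: 14 lie to the right and 3 to the left at 24 h, 7 and 7 at 48 h, and none at 72 h, where 30 of 36 points are still to the right of 0.

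Of the 25 genes called at either time, 3 were higher at both (Nop10, Ltv1, Bysl), 3 were higher at 24 h and lower at 48 h (Gnl3, Heatr1, Tsr1), and the other 19 were called at a single time. The difference between the 24 h and the 48 h effect itself was called for 15 of the 36 genes, or 41.7%, beside 37.0% of the 15093 genes tested. It was more positive at 48 h for 6 of them (19.3% of all genes) and more negative for 9 (17.7%). From 48 h to 72 h the effect became more positive for 5 genes and more negative for 1, where 5.86% and 8.78% of all genes did, 14.6% together. From 24 h to 72 h 1 gene became more positive (Nhp2) and 2 more negative (Rrp9, Nop10), beside 2.74% and 1.41%, or 4.15% together. Summed over the list, the level in 24 h shams was 1217 CPM ± 74.7 (SD, n = 6) and in 24 h UNx 1210 ± 43.8. The sums of sham and UNx were 1079 ± 14.9 and 1086 ± 35.2 for 48 h, then 1043 ± 25.0 and 1099 ± 41.6 for 72 h. At 24 h and 48 h the groups differed by less than their SD. Ncl and Npm1 make up the largest share of the sum.

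Among the 5 genes of RNA polymerase I transcription, none rose at any time. Ubtf, the factor that coats active ribosomal DNA, fell at 24 h: 24 h shams ran from 79.1 through a median of 85.4 to 90.8 CPM, and UNx from 71.2 through 76.3 to 79.7. Every UNx mouse lay below the sham mean, though the ranges overlapped slightly (log2 fold change -0.17, SE 0.05, adjusted p = 0.0201, edgeR). At the later times Ubtf was 67.3 ± 3.62 (SD, n = 6) and 70.1 ± 7.17 CPM at 48 h, sham first. At 72 h the medians were 74.1 and 75.2 CPM, within 66.8 to 83.4 in sham and 65.3 to 81.0 in UNx. Its effect was more positive at 48 h than at 24 h by 0.26 (adjusted p = 0.0241).

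Polr1b, the second largest subunit of the polymerase, fell at 48 h, from 14.5, 16.3 and 18.5 CPM (lowest, median, highest sham) to 11.2, 13.0 and 14.8. All 6 UNx mice were below the sham mean (log2 fold change -0.36, SE 0.08, adjusted p = 0.00562, edgeR). It was 14.5 ± 1.79 and 16.0 ± 0.946 CPM at 24 h and 18.5 ± 1.20 and 19.6 ± 1.17 at 72 h. Polr1c, a subunit shared with RNA polymerase III, was also called lower at 48 h (-0.31, adjusted p = 0.0265). UNx replicate 6, however, stood at 24.6 CPM inside the sham range of 21.7 to 27.0, while replicates 1 to 5 averaged 18.5. Polr1a, the largest subunit, and Rrn3, which recruits the polymerase to its promoter, had fold changes between -0.08 and 0.12 at all times and were not called.

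The box C/D snoRNPs carry the methylase Fbl on a scaffold of Nop56 and Nop58. Nop56 rose at 24 h, from 12.6, 14.1 and 16.1 CPM in sham to 15.6, 17.9 and 18.7 in UNx, with little overlap (log2 fold change 0.31, SE 0.07, adjusted p = 0.00469, edgeR). It was 15.3 ± 1.51 and 15.0 ± 1.55 CPM at 48 h, and 15.7 ± 1.82 and 17.6 ± 1.46 at 72 h (0.17, adjusted p = 0.308). Rrp9, the U3 snoRNP protein, rose at 24 h as well (0.36, adjusted p = 0.0211). Fbl itself behaved otherwise: it was called at 48 h alone, rising from 21.4, 22.7 and 24.2 CPM to 25.1, 28.9 and 34.0, with no overlap between the groups (0.37, SE 0.08, adjusted p = 0.00368). At 24 h Fbl was 28.4 ± 2.89 and 26.0 ± 1.51 CPM, and at 72 h 25.5 ± 1.70 and 27.3 ± 1.19. The 48 h effect of Fbl exceeded that at 24 h by 0.52 (adjusted p = 4.63e-05), and from 48 h to 72 h it fell by 0.28 (adjusted p = 0.0417). Nop58 was called at no bulk time.

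The H/ACA snoRNPs pair the pseudouridine synthase Dkc1 with Nhp2, Nop10 and Gar1, and 3 of these core proteins went different ways. Nop10, the smallest, had the largest rise of the list at 24 h. Shams ran from 19.9 through 21.9 to 26.1 CPM and UNx from 24.9 through 32.0 to 34.4, with 1 UNx mouse inside the sham range (log2 fold change 0.50, SE 0.08, adjusted p = 0.000665, edgeR). It rose again at 48 h, from 36.4 ± 2.68 to 44.7 ± 4.45 CPM (0.30, SE 0.07, adjusted p = 0.00789). At 72 h the groups were 38.8 ± 1.93 and 40.7 ± 2.22 CPM. From 24 h to 72 h the effect fell by 0.40 (adjusted p = 0.0156). The 24 h shams were themselves low: on the scale of all 36 libraries they held 23.9 CPM, against 36.8 and 35.3 in the later shams.

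Nhp2, which binds the guide RNA, gave the largest effect of the list, at 48 h. The 48 h shams held 22.5, 27.4 and 34.8 CPM (lowest, median, highest) and the UNx mice 37.0, 47.5 and 62.2, without overlap. The log2 fold change was 0.79 (SE 0.12, adjusted p = 0.00069, edgeR). Here UNx replicate 6, with 48.4 CPM, stood with replicates 1 to 5, which averaged 47.8. At 72 h Nhp2 ran from 25.3 through 27.7 to 31.2 CPM in sham and from 28.2 through 38.2 to 54.7 in UNx, every UNx mouse being above the sham mean. That difference of 0.51 (SE 0.13) just missed the threshold in edgeR (adjusted p = 0.0561). It passed in 5 of 21 other planned settings. Among these were the DESeq2 Wald test (0.52, adjusted p = 0.00572) and limma voom (0.52, adjusted p = 0.0161). In edgeR it passed with all 36 libraries in 1 fit (0.53, adjusted p = 0.0314) and without UNx replicate 6 (0.60, adjusted p = 0.0108). Pooling the shams of 48 h and 72 h also passed (0.45, adjusted p = 0.032). It did not pass with replicate number as a block (0.49, adjusted p = 0.149) or DESeq2 size factors (0.52, adjusted p = 0.0585). With the score as a covariate it was 0.32 (adjusted p = 0.425), the highest adjusted p among the settings run.

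At 24 h Nhp2 was not higher in UNx: 57.1 ± 10.4 CPM in sham and 52.7 ± 6.30 in UNx (log2 fold change -0.11, SE 0.11). Both 24 h groups were thus above the sham level of 27.6 CPM at 48 h and 28.1 at 72 h, and the libraries of 24 h were those of batch 1. The effect was more positive at 48 h than at 24 h by 0.94 (adjusted p = 0.000179), and more positive at 72 h than at 24 h by 0.65 (adjusted p = 0.0385). Nhp2 overlaps a coding gene on the opposite strand, Rmnd5b. The bulk kit keeps strand; the counting setting is not given in the sources used here.

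Dkc1 fell at 24 h (log2 fold change -0.27, adjusted p = 0.0258) and was not called later. Nolc1, the chaperone that brings snoRNPs to the nucleolus, rose at 24 h (0.23, adjusted p = 0.0133), and its values at 48 h (0.25, adjusted p = 0.0582) and 72 h (0.20, adjusted p = 0.215) did not pass. Gar1 was called at no time.

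**Figure D2:**
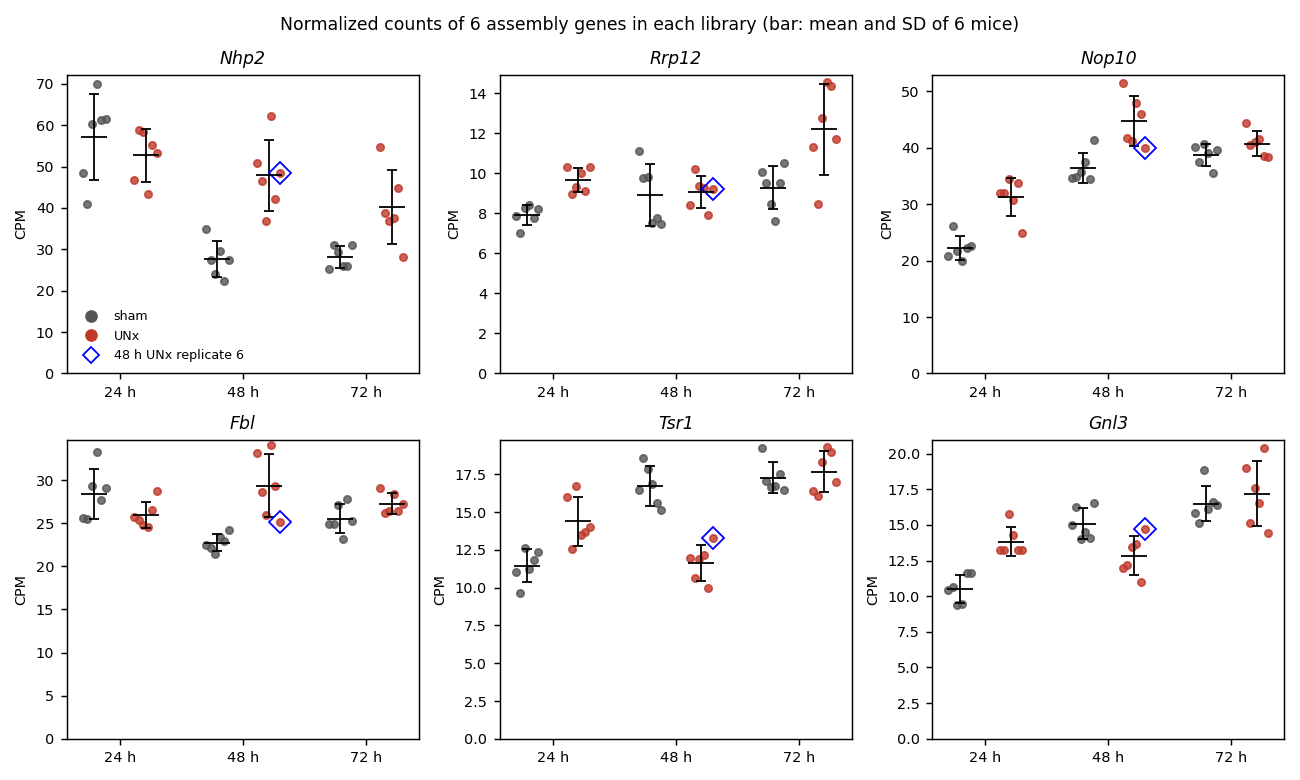
Level in CPM (y axis, from 0) of 6 assembly genes in every bulk library, by time (x axis), sham in grey and UNx in red, with the mean and SD of 6 mice and 48 h UNx replicate 6 marked by a blue diamond. Nhp2 and Tsr1 separate the 48 h groups with replicate 6 on the side of the other UNx mice, whereas replicate 6 of Nop10 and Gnl3 lies inside the sham range; the 24 h shams of Nhp2 lie above and those of Nop10 below all later shams.

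Of the abundant nucleolar proteins, only Gnl3 rose at 24 h, and 3 of the 4 fell at 48 h. Gnl3 (nucleostemin, a GTP-binding protein of growing cells) went from 9.37, 10.5 and 11.6 CPM in 24 h shams to 13.2, 13.3 and 15.8 in UNx, with no overlap (log2 fold change 0.40, SE 0.08, adjusted p = 0.00173, edgeR). At 48 h the direction turned, from 15.1 ± 1.09 to 12.8 ± 1.36 CPM (-0.23, adjusted p = 0.0433), and the difference between the effects was -0.60 (adjusted p = 0.000133). At 72 h Gnl3 was 16.5 ± 1.26 and 17.2 ± 2.29 CPM. The 48 h call of Gnl3 passed in 7 of 22 other settings, and UNx replicate 6 (14.7 CPM) was inside the sham range.

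Ncl (nucleolin) was the most abundant gene of the list. At 48 h it fell from 196, 215 and 226 CPM in sham to 177, 183 and 207 in UNx (log2 fold change -0.19, SE 0.06, adjusted p = 0.0216, edgeR). All 6 UNx mice were below the sham mean. At 24 h Ncl was 241 ± 26.7 and 211 ± 9.62 CPM (-0.19, adjusted p = 0.0526), and at 72 h 230 ± 9.52 and 232 ± 7.44. The difference of Ncl passed in 8 of 20 other settings at 24 h and in 18 of 22 at 48 h. Ddx21, an RNA helicase, was 45.3 ± 2.17 and 50.1 ± 2.88 CPM at 24 h (0.14, adjusted p = 0.0502). It fell at 48 h from 43.2 ± 3.68 to 37.4 ± 2.74 CPM (-0.21, adjusted p = 0.0367, edgeR). This call passed in 10 of 22 other settings. At 72 h Ddx21 was 45.9 ± 3.83 and 49.6 ± 4.63 CPM, and the effect at 72 h exceeded that at 48 h by 0.31 (adjusted p = 0.0196, edgeR). Npm1 (nucleophosmin) was negative at all 3 times, from -0.18 to -0.06, and was never called.

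The small subunit processome folds and cuts the 18S part of the precursor. Of its 7 genes, 3 rose at 24 h (Utp20, Heatr1 and Rrp12) and Wdr43 fell. The call of Wdr43 (-0.16, adjusted p = 0.0467, edgeR) passed in 8 of 20 other settings. Rrp12, an export and processing factor of both subunits, went from 7.02, 8.03 and 8.42 CPM in sham to 8.97, 9.64 and 10.3 in UNx, with no overlap (log2 fold change 0.29, SE 0.07, adjusted p = 0.00976, edgeR). At 48 h Rrp12 was 8.90 ± 1.53 and 9.06 ± 0.795 CPM. At 72 h it was above the sham mean in 5 of 6 UNx mice, with 7.62, 9.51 and 10.5 CPM in sham and 8.45, 12.2 and 14.5 in UNx, a difference of 0.39 (SE 0.12) with an adjusted p of 0.126. This passed in 2 of 21 other planned settings. In edgeR these were all 36 libraries in 1 fit (0.40, adjusted p = 0.0377) and UNx replicate 2, the low mouse, left out (0.48, adjusted p = 0.0331). It did not pass in the DESeq2 Wald test (0.39, adjusted p = 0.0583) or limma voom (0.43, adjusted p = 0.0787).

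Heatr1, a large scaffold of the processome, rose at 24 h from 13.7 ± 0.785 to 16.4 ± 1.86 CPM (log2 fold change 0.26, adjusted p = 0.0214). It fell at 48 h, from 14.2, 16.9 and 18.4 CPM in sham to 11.4, 14.3 and 15.6 in UNx (-0.26, SE 0.09, adjusted p = 0.043, edgeR). This call passed in 6 of 22 other settings, and with the score it was -0.13. At 72 h it was 19.3 ± 1.63 and 21.8 ± 2.35 CPM (0.18, adjusted p = 0.262). The effect changed by -0.49 from 24 h to 48 h (adjusted p = 0.00143) and by 0.43 from 48 h to 72 h (adjusted p = 0.012). Wdr75, Nop14 and Noc4l were not called at any time.

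Of the 4 late 40S factors, 3 rose at 24 h and the other, Nob1, was 0.22 (adjusted p = 0.117). Tsr1, a GTPase-like factor of cytoplasmic 40S maturation, rose from 9.66, 11.5 and 12.6 CPM in sham to 12.6, 13.8 and 16.7 in UNx (log2 fold change 0.33, SE 0.09, adjusted p = 0.0102, edgeR). At 48 h it was the gene with the largest fall of the list: 15.1, 16.7 and 18.6 CPM in sham and 9.97, 11.9 and 13.3 in UNx, with no overlap (-0.52, SE 0.08, adjusted p = 0.000681). UNx replicate 6, at 13.3 CPM, was also under every sham. At 72 h Tsr1 was 17.3 ± 1.02 and 17.7 ± 1.36 CPM. The effect fell by 0.82 from 24 h to 48 h (adjusted p = 6.26e-07) and went up by 0.55 between 48 h and 72 h (adjusted p = 0.00101).

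Bysl and Ltv1, which ride on the pre-40S particle and leave as it matures, rose at 24 h and 48 h. Bysl went from 13.4, 15.9 and 17.3 CPM to 15.9, 19.0 and 20.4 at 24 h (log2 fold change 0.24, SE 0.07, adjusted p = 0.0265, edgeR). At 48 h it went from 10.4, 12.1 and 13.6 to 12.9, 15.8 and 17.0 CPM (0.35, SE 0.10, adjusted p = 0.0154), and at 72 h from 13.2 ± 1.54 to 15.5 ± 1.69 CPM (0.24, adjusted p = 0.196). In all 18 UNx mice Bysl was above the sham mean of its time. Ltv1 rose from 17.9 ± 1.53 to 20.4 ± 0.814 CPM at 24 h (0.19, adjusted p = 0.033, edgeR). This call passed in 11 of 20 other settings. At 48 h Ltv1 rose from 14.5 ± 1.30 to 17.5 ± 1.15 CPM with no overlap (0.27, adjusted p = 0.0143, edgeR), and at 72 h it was 16.7 ± 0.681 and 17.4 ± 0.839. Nob1, the nuclease that makes the 18S end, was not called.

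Among the 60S factors the trio of Pes1, Bop1 and Wdr12, which work as the PeBoW complex, all rose at 24 h. Wdr12 went from 7.63, 8.42 and 9.21 CPM to 10.1, 11.5 and 13.2 with no overlap (log2 fold change 0.46, SE 0.08, adjusted p = 0.000695, edgeR). Pes1 went from 27.1, 29.9 and 31.3 CPM to 31.6, 33.5 and 35.7, also without overlap (0.18, SE 0.05, adjusted p = 0.0188). Bop1 went from 16.2, 18.5 and 19.8 CPM to 19.8, 23.1 and 24.5 (0.30, SE 0.07, adjusted p = 0.004). None of the 3 was called at 48 h, where Wdr12 was -0.17, Pes1 -0.00 and Bop1 0.11, or at 72 h, where they were 0.12, 0.06 and 0.19. With the pseudogene score as a covariate within 24 h, where it parts sham from UNx, the values were smaller and none was called. They were 0.23 for Wdr12, 0.08 for Pes1 and 0.05 for Bop1 (adjusted p = 0.828, 0.945 and 0.983, edgeR). With the score over all 36 libraries, chosen after seeing the data, they were 0.29, 0.09 and 0.29 (adjusted p = 0.0135, 0.401 and 0.017, edgeR).

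The 48 h groups held 13.1 ± 0.892 CPM (sham) and 11.7 ± 1.60 (UNx) of Wdr12, and the 72 h groups 13.5 ± 0.807 and 14.6 ± 1.02. Bop1 was 24.6 ± 1.82 CPM in sham and 26.6 ± 1.12 in UNx at 48 h. At 72 h Bop1 ran from 25.2 through 27.1 to 31.2 in sham and from 27.7 through 31.4 to 36.2 in UNx. The effect of Wdr12 at 48 h differed from that at 24 h by -0.60 (adjusted p = 2.94e-05). The other 60S genes reached their calls at 48 h. Noc2l, which moves with pre-60S particles inside the nucleus, rose from 28.0, 30.3 and 31.6 to 30.7, 35.2 and 42.3 CPM (log2 fold change 0.25, SE 0.07, adjusted p = 0.0158), and Nop16 rose by 0.26 (adjusted p = 0.0195). At 24 h Noc2l was 39.6 ± 3.53 and 36.1 ± 2.03 CPM, and at 72 h 32.7 ± 1.86 and 34.1 ± 1.44. Nop2, which methylates 28S RNA, and Rrs1 were called at no time, and all 7 genes of this role were positive at 72 h, from 0.06 to 0.19.

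The calls were also fitted with the pseudogene score. Within 24 h this score parts the groups without overlap (0.958 to 1.04 in sham, 0.674 to 0.884 in UNx). A fit with both can hardly tell surgery from score, so a loss of calls there decides nothing about either. With the score as a covariate within the 24 h libraries, 0 of the 36 genes passed, and 80 genes in all. An unadjusted p under 0.05 was reached by 6 of the 36 and by 1225 of all genes (edgeR). The list's median was then 0.15 and 30 of 36 fold changes were positive, while the median standard error rose from 0.07 to 0.18. Of the 14 genes called higher, 13 stayed positive and 7 were at least as large, among them Rrp12 (0.49) and Bysl (0.36). The other 7 were smaller, Heatr1 going from 0.26 to 0.07, Gnl3 from 0.40 to 0.27 and Nop10 from 0.50 to -0.05. A fit of all 36 libraries with the score was an alternative chosen after seeing the data. It called 9 of the 14 and none of the 3 lower genes. Ncl, not called without the score, was called lower there (-0.24, adjusted p = 0.0211, edgeR), and 1754 genes were called in all.

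At 48 h the score sets UNx replicates 1 to 5 apart from the other libraries of that time. A fit with it therefore rests largely on UNx replicate 6. No gene at all passed in edgeR with the score in the fit, where 3 of the 36 had an unadjusted p under 0.05. Such a p was reached by 2093 of all genes. UNx replicate 6 alone against the 6 shams gave a median log2 fold change of -0.04 over the 36 genes, with 13 positive. Of the 14 called genes, 8 had replicate 6 inside the sham range: Polr1b, Polr1c, Nop10, Ncl, Gnl3, Heatr1, Bysl and Noc2l. In the other 6, replicate 6 was outside it, on the side of replicates 1 to 5, with log2 differences from the shams of 0.81 for Nhp2, -0.33 for Tsr1, 0.22 for Ltv1, 0.16 for Nop16, 0.15 for Fbl and -0.13 for Ddx21. The 48 h shams and the shams of 24 h and 72 h are different mice, so the 48 h effect can be set beside the difference of the 24 h shams from the 72 h shams without shared libraries. The signs matched in 11 of the 14 called genes and in 20 of all 36. Over the 36 genes Pearson's r was 0.54 and Spearman's rho 0.40, a description across genes that share libraries. The match and the correlation over all genes were not computed. Neither can therefore be read as a trait of this list.

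**Figure D3:**
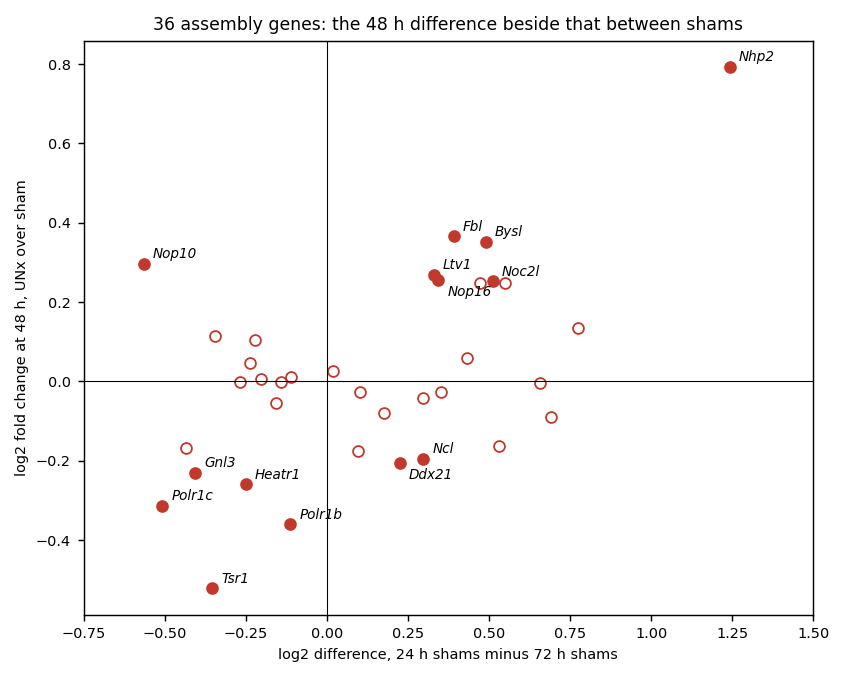
The log2 difference of the 24 h shams from the 72 h shams (x axis) and the log2 fold change of UNx over sham at 48 h (y axis) for the 36 assembly genes, filled where called at 48 h. Of the 14 filled points, 11 lie in the quadrants where both values have the same sign, Nhp2 farthest out, and 3 do not: Nop10, Ncl and Ddx21.

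The other genes of the pathway, taken from lists of known factors, were mixed, and their counts are to be read beside the 27.3% of all genes called at 24 h and the 32.9% at 48 h. Of 38 further small subunit factors, 7 were higher and 2 lower at 24 h, with a median of 0.06; at both times 23.7% of the list was called, below the share of all genes. Utp18 (0.45, adjusted p = 0.000334) and Pno1 (0.36, adjusted p = 0.00224) led the rise, and Aatf (-0.24) and Imp4 (-0.23) fell. At 48 h 4 of the 38 were higher, led by Wdr46 (0.40) and Utp11 (0.32), and 5 lower, led by Pwp2 (-0.57, adjusted p = 0.00111) and Wdr3 (-0.43). Of 37 further large subunit factors, 7 were higher and 6 lower at 24 h (median -0.00), with Eif6 (0.30) and Nifk (0.23) up and Lyar (-0.70) and Gnl2 (-0.35) down. At 48 h the counts were 7 and 6, with Rpf2 (0.66) and Rpf1 (0.45) up and Mdn1 (-0.48) and Gtpbp4 (-0.42) down. At 72 h the medians of these small and large subunit lists were 0.02 and 0.03.

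Of the 10 other RNA polymerase I genes, 3 were higher and 1 lower at 24 h, and 2 were lower at 48 h, led by Ttf1 (-0.38) and Taf1d (-0.36). Of 22 RNA polymerase III genes, which serve 5S RNA and tRNA, 1 was higher and 3 lower at 24 h, and 5 higher and 7 lower at 48 h. Of 13 genes of the RNA exosome, which trims the precursor, 3 rose at 24 h, led by C1d (0.54, adjusted p = 0.000961). At 48 h 3 rose, led by Exosc10 (0.34) and Exosc1 (0.54), and C1d fell (-0.59, adjusted p = 0.0323). Of 10 snoRNP assembly factors only Pih1d1 was called (0.29 at 48 h).

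For the known regulators, Myc was 4.06 ± 1.06 and 5.89 ± 2.22 CPM at 24 h (log2 fold change 0.53, adjusted p = 0.104, edgeR). It rose at 48 h from 3.77 ± 0.906 to 6.20 ± 2.06 CPM (0.72, SE 0.23, adjusted p = 0.0263), and at 72 h it was 5.11 ± 1.50 and 4.21 ± 1.24. Its partner Max fell at 24 h (-0.30, adjusted p = 0.00306) and rose at 48 h (0.38, adjusted p = 0.0259), and Mlx rose at both times (0.37 and 0.38). In the whole Myc family list, 2 of 10 genes tested were higher and 2 lower at 24 h. At 48 h 4 of 11 were higher and 1 lower, and at 72 h 1 was higher and 1 lower. The fold changes of the family ran from -0.57 to 1.07 at 48 h and from -0.50 to 1.10 at 72 h. Of 22 mTORC1 pathway genes, 1 was higher and 5 lower at 24 h, and 4 higher and 3 lower at 48 h. These are 27.3% and 31.8% of the list, the same as or close to the 27.3% and 32.9% of all genes. At 72 h Eif4e, the cap-binding factor of translation, was the single call among the 22 (0.22, adjusted p = 0.043). These are mRNA levels, and mTORC1 activity was not measured.

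Markers of dividing cells moved with surgery at each time. At 24 h, 4 of 5 tested markers were higher, and their summed level ran from 8.09 to 18.8 CPM in sham and from 15.8 to 40.8 in UNx. At 48 h 3 of 6 were higher (29.2 to 87.8 and 53.8 to 143 CPM), and at 72 h 6 of 6 (24.5 to 41.7 and 65.7 to 126 CPM). Mki67 at 72 h was 14.3 ± 2.67 CPM in sham and 34.9 ± 8.91 in UNx (1.29, adjusted p = 0.00285). Summed proximal tubule markers ran from 8514 to 9968 CPM in 24 h shams and from 8531 to 9744 in 24 h UNx mice, with 1 of 6 called higher; at 48 h 2 of 6 were higher and 1 lower. Red blood cell markers were higher for 2 of 4 at 24 h (103 to 165 CPM in sham, 127 to 185 in UNx) and lower for 1 of 4 at 48 h (388 to 886 and 242 to 607). At 24 h 1 of 3 podocyte markers was lower and 1 of 3 thick ascending limb markers higher, and at 48 h 1 of 3 fibroblast markers was lower and 1 of 5 macrophage markers higher. Intercalated cell markers were lower for 1 of 3 at both times, and thick ascending limb markers higher for 1 of 3 at 48 h. In bulk tissue, fewer cells of a type and less RNA per cell cannot be told apart, and the part of these cell types in the levels of the assembly genes was not tested.

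In the nuclei, the assembly genes could be placed in cell classes. The deposited table held 16500 nuclei in 30 classes of the authors' annotation, of which 23 had at least 10 nuclei in every mouse, and 18 barcodes occurred in more than 1 library. Counts were summed per mouse, so each test is 2 mice against 2. Over all nuclei the 36 genes together took 725 and 855 UMIs per M in the shams of batch 3 and batch 4, and 705 and 855 in the UNx mice. The batch gap was larger than the gap between groups: 28 of 36 genes were higher in batch 4 than in batch 3 in both groups, and 6 were lower in both.

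No assembly gene was called over all nuclei or in any of the 23 classes in edgeR, where 0.0% of all genes were called and 360 of 19975 genes over all nuclei had an unadjusted p under 0.05. Of 532 pairs of gene and class tested, 3 (0.564%) had an unadjusted p under 0.05. These were Nop58 in DTL1 (log2 fold change 1.82) and PTS3 (-0.62), and Nolc1 in EC2 (1.51). Over all genes 37 of 5205 in DTL1, 250 of 14816 in PTS3 and 16 of 10174 in EC2 had such a p. The share over all genes and all classes together was not computed. DESeq2 called none of the 36 either. With the batch pair as a replicate block 207 genes were called over all nuclei and 1585 over the classes together, none of them among the 36. On simulated counts of all nuclei, the fit without the block recovered 0 of 100 genes changed by 1 on the log2 scale, so the absence of calls in that fit says little; the fit with the block was not simulated. Over all nuclei 21 of 36 fold changes were positive, with a median of 0.03 beside -0.01 for all genes, and standard errors from 0.16 to 0.89.

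Nhp2 was positive in all 17 classes where it was tested, with log2 fold changes from 0.06 to 1.18, and UNx was above sham within both batches in 15 of them. Over all nuclei it held 5.25 CPM in the sham and 10.4 in the UNx mouse of batch 3, and 21.3 and 31.9 in those of batch 4. The gap between batches exceeded that between groups, and the log2 fold change of 0.67 had an SE of 0.89 and an unadjusted p of 0.493. The classes come from the same 4 mice and are not separate replicates. In bulk at the same time Nhp2 was not higher in UNx (-0.11, given above).

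**Figure D4:**
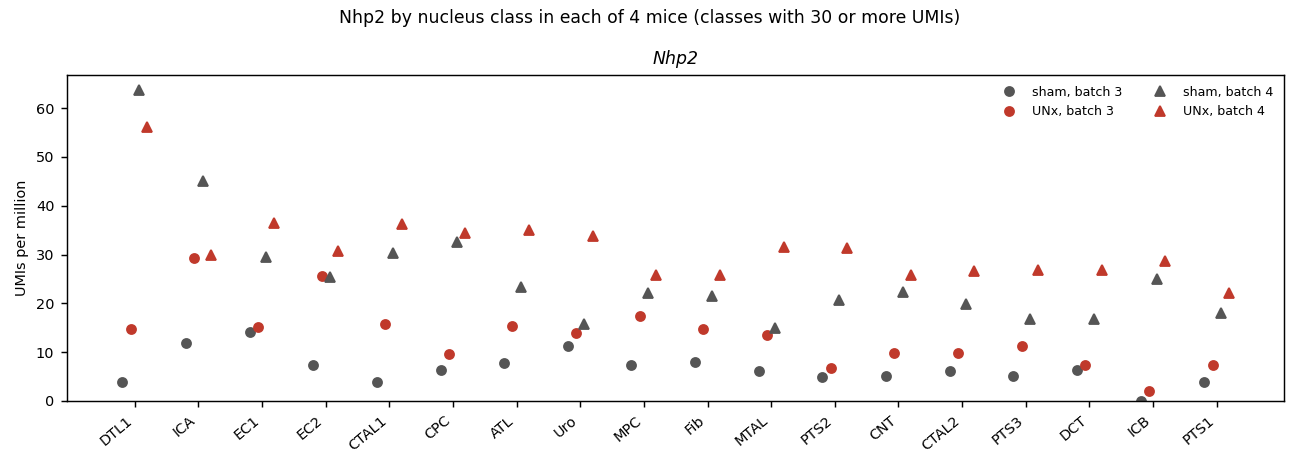
UMIs of Nhp2 per M (y axis) in each nucleus class (x axis, classes with 30 or more Nhp2 UMIs), 1 point per mouse, sham in grey and UNx in red, circles for batch 3 and triangles for batch 4. In every class shown, each batch 4 mouse lies above the batch 3 mouse of its group, and the overall values are 5.25 and 10.4 CPM in batch 3 and 21.3 and 31.9 in batch 4, sham first.

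Levels across classes, averaged over the 4 mice, differed most for Pes1 and Utp20, as a description of the authors' classes, named as deposited, with no test; these genes were singled out after their values were seen. Among classes with at least 100 UMIs of the gene, the mean over 4 mice of the highest class was 6.56 times that of the lowest for Pes1 and 4.63 times for Utp20, and at most 2.61 times for the other genes with such classes. The value for Pes1 rests on the batch 3 mice. Noc4l had no class with 100 UMIs, Pes1 had 8, Utp20 had 16 and the others had 3 to 18, so the ratios cover unlike sets of classes. Utp20, a long scaffold protein of the processome, was highest in the classes PTS2 and PTS3. PTS2 held 85.1 and 124 UMIs per M in the sham and UNx mice of batch 3, and 148 and 156 in those of batch 4. In PTS3 the same 4 mice held 83.7, 105, 88.0 and 111. PTS1 was lower, at 27.0, 38.1, 65.1 and 73.7, and the lowest class, CTAL1, was at 16.3, 21.0, 29.1 and 44.4. The order PTS2 above PTS1 held in each of the 4 mice.

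Pes1 was far higher in ATL and MTAL than in PTS1 in batch 3. In batch 4 ATL was closer to PTS1, and MTAL was above PTS1 in the sham and below it in the UNx mouse. In MTAL it held 64.8 and 47.6 UMIs per M in the sham and UNx mice of batch 3 and 12.7 and 9.75 in those of batch 4. In ATL the 4 values were 133, 66.0, 18.2 and 14.6. In PTS1 they were 6.68, 8.40, 9.15 and 11.1, close to each other in both batches. Gal3st1, a sulfotransferase gene whose start lies 3632 bases past the end of Pes1 on the same strand (GRCm38), was high in MTAL in all 4 mice (213, 248, 205 and 213, in the same order). Whether reads of 1 gene were counted for the other was not tested. In bulk Pes1 was called higher in UNx at 24 h, while over all nuclei its fold change was -0.12 with an SE of 0.37.

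**Figure D5:**
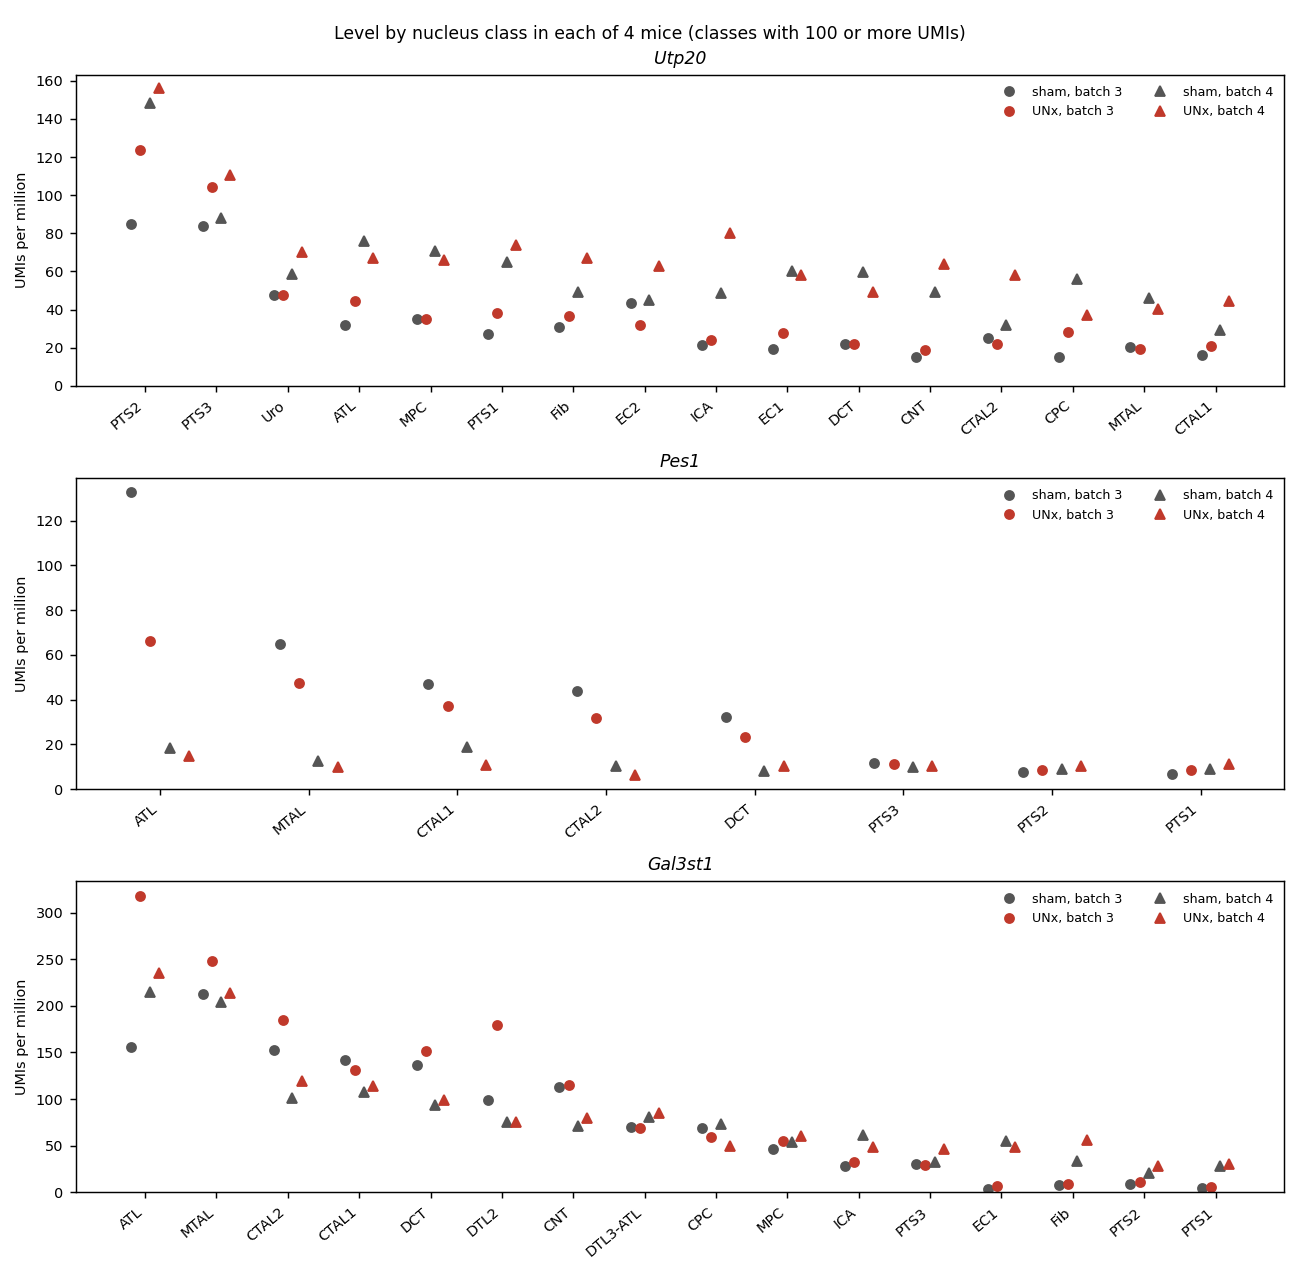
UMIs per M (y axis) of Utp20, Pes1 and the neighbouring gene Gal3st1 by nucleus class (x axis, classes with 100 or more UMIs of that gene, in order of the mean), 1 point per mouse, sham in grey and UNx in red, circles for batch 3 and triangles for batch 4. Utp20 is highest in PTS2 and PTS3 in all 4 mice, whereas the Pes1 values of ATL and MTAL are high in batch 3 only, at 133 and 66.0 in ATL against 18.2 and 14.6 in batch 4.

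The remaining genes had smaller ratios between their highest and lowest classes. Rrp12, Ltv1, Rrp9, Bysl and Nop16 had only 3 classes with 100 UMIs. Their highest and lowest classes were among PTS1, PTS2 and PTS3, so their ratios do not describe the other classes. Fbl was highest in EC2 (mean 59.1 UMIs per M) and lowest in CTAL2 (24.9), Nop58 highest in Uro (58.1) and lowest in PTS1 (22.2), and Ncl highest in Uro (104) and lowest in PTS3 (54.3). In each of these 3 genes the 4 mice of the highest class lay above those of the lowest. Npm1 and Ddx21 were highest in MPC, with 68.8 and 37.0. Fold changes of UNx over sham for genes called in bulk at 24 h did not pass in the nuclei: over all nuclei they were 0.02 for Nop10, -0.12 for Gnl3, 0.03 for Wdr12, 0.34 for Nop56 and 0.37 for Utp20, with SEs of 0.63, 0.20, 0.16, 0.56 and 0.39. Ubtf, lower in UNx in bulk, was 0.26 (SE 0.30) in the nuclei and positive in 16 of 19 classes. Nuclear and whole-tissue RNA are different pools from different mice, and their difference was not tested.

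Where genes lie over one another, counts can be shared. Of the 36 genes, 12 overlap a coding gene on the opposite strand in GENCODE M21 (Nop56, Rrp9, Dkc1, Nhp2, Gnl3, Heatr1, Tsr1, Bysl, Pes1, Bop1, Wdr12 and Noc2l). In the same annotation 7 of them hold snoRNA genes within their bounds (Nop56, Nop58, Dkc1, Ncl, Gnl3, Wdr43 and Tsr1).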

How the data were processed

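Per the labels, bulk libraries came from a stranded mRNA kit and nuclei from a droplet kit reading transcript 3' ends. The deposited bulk and nucleus tables hold estimated counts (expected counts), not normalized. Per the submitters' processing notes, the bulk work used GRCm39, Salmon 1.5.0, FastQC 0.11.8 and R 4.10, and the nuclei mm10, alevin and Seurat, with no settings stated there. Of the bulk values 34.1% were not whole, and of nucleus values above 0 13.9%; they were rounded, for nuclei after summing per mouse and class.

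edgeR 4.0.16 in R 4.3.3 was used (quasi-likelihood, filterByExpr, TMM, two-sided), within the 12 libraries of a time point, or over all 36 for differences between effects; adjustment covered all genes tested. A standard error is the size of the log2 fold change over the root of its F statistic. Bulk symbols came from GENCODE M21. DESeq2 1.42.0 and limma 3.58.1 were alternatives. Genes, lists and members were chosen with earlier results of these data known.

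Of the 36 genes, those called at 72 h, in nuclei or at 2 times in 1 direction, or with the lowest p of their role at a time, are given with values of every group. Other lists name the 2 lowest p per direction. Values of Polr1c, Rrp9, Dkc1, Nolc1, Utp20, Pes1, Nop16, Max and Mki67, and class levels in nuclei, were added after they were seen. Alternatives were other scalings, filters, tools, covariates and left-out libraries.

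No source says the bulk replicates came from shared litters or days, and p-values measure spread between the sampled mice. Of 90 replicate pairs, the lowest chi-square per gene was 5.04, so none was counted as a duplicate. Nucleus replicate numbers go with the batch label, so they pair sham with UNx; a block on them left the count for the 36 genes at 0, while 207 genes in all were then called over all nuclei and 1585 over classes. No doublet caller was run on the deposited nuclei, and the lowest UMI total was 1755. On simulated data with 200 changed genes, recovery was counted for log2 changes of 0.3, 0.5 and 1. The 24 h bulk test (14104 genes) recovered 12%, 62% and 84%, and the 48 h test (14280 genes) 12%, 40% and 93%. The 72 h test (14556 genes) recovered 24%, 48% and 92%, and the test over all nuclei (19975 genes) 0%. In the data 3852 genes were called at 24 h and 4696 at 48 h. With so many calls the adjusted threshold is easier to pass than in the simulation, so those shares do not carry over.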

Additional observations from a re-analysis of the deposited data

Results flagged for a closer look

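Of 234 groups of 6 libraries examined, 14 held a library whose gap to the nearest other exceeded Dixon's limit, a share that chance alone gives in about 1 of 20 groups. UNx replicate 6 of 48 h had 15.2% mitochondrial counts where the other 5 had 25.8 to 26.4%, and a pseudogene score of 0.00628 where they had 0.640 to 0.717. The 48 h shams had 14.0 to 15.5% and scores of -0.0419 to 0.0618, so it is replicates 1 to 5 that differ from the rest of batch 2. UNx replicate 6 of 24 h had a score of 0.884 beside 0.674 to 0.706, and its Rrs1 level was 27.8 CPM beside 19.7 to 22.6. At 24 h, sham replicate 3 held 4.91 CPM of Gar1 (others 3.90 to 4.16) and 8.10 of Wdr75 (others 10.3 to 11.2). At 48 h, UNx replicate 1 held 8.86 CPM of Rrp9, 6.88 of Gar1 and 21.8 of Rrs1, above the other 5 in each. Wdr12 was 11.4 CPM in sham replicate 6 of 48 h (others 13.3 to 13.9), 14.7 in UNx replicate 6 of 48 h (others 10.1 to 11.6) and 16.6 in UNx replicate 4 of 72 h (others 13.8 to 14.7). At 72 h, sham replicate 3 held 6.45 CPM of Rrp9 (others 7.66 to 8.28) and sham replicate 1 held 112 of Npm1 (others 131 to 142).

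The effect of UNx differed between time points for several genes, by edgeR's test of the difference (log2, later minus earlier). From 24 h to 48 h it became more positive for Nhp2 (0.94), Fbl (0.52), Noc2l (0.41), Nop14 (0.37), Nop16 (0.29) and Ubtf (0.26). It became more negative for Tsr1 (-0.82), Wdr12 (-0.60), Gnl3 (-0.60), Heatr1 (-0.49), Polr1b (-0.47), Polr1c (-0.34), Rrp9 (-0.32), Ddx21 (-0.32) and Nop56 (-0.31). Adjusted p-values of these 15 genes ran from 6.26e-07 to 0.0406. From 48 h to 72 h it became more positive for Tsr1 (0.55), Polr1b (0.44), Heatr1 (0.43), Polr1c (0.32) and Ddx21 (0.31) and more negative for Fbl (-0.28), with adjusted p from 0.00101 to 0.0417. From 24 h to 72 h it rose for Nhp2 (0.65, adjusted p = 0.0385) and fell for Rrp9 (-0.41, adjusted p = 0.0419) and Nop10 (-0.40, adjusted p = 0.0156). The 24 h libraries are those of batch 1, so a difference from 24 h and a difference between batches cannot be told apart.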

How the results depend on the processing

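With the pseudogene score as a covariate, 0 assembly genes were called at 24 h and 0 at 48 h. Of all genes 80 and 0 were called there. For each difference between times the count was also 0. Over all genes it was 1 for 24 h to 48 h, 0 for 48 h to 72 h and 62 for 24 h to 72 h. In edgeR 6 and 3 of these assembly genes had an unadjusted p under 0.05 at 24 h and 48 h. Of all genes 1225 and 2093 had such a p. The score goes with surgery at 24 h and with UNx replicates 1 to 5 at 48 h. Fits with it can hardly separate the score from surgery. A fit of all 36 libraries with the score was chosen after seeing the data. Its counts were 10 (9 higher, 1 lower), 0 and 2 at 24, 48 and 72 h, and 1754, 16 and 350 over all genes. With 48 h UNx replicates 1 to 5 left out the count was 0 at 48 h, where the lone mouse is assumed to vary like the shams, 1 for 24 h to 48 h and 0 for 48 h to 72 h. At 72 h, 1 gene was called by the DESeq2 Wald test, by limma voom and with the shams of 48 h and 72 h together. With all 36 libraries in 1 fit the count was 2. Over all genes the calls were 673, 809, 418 and 312 in that order. For 24 h to 72 h the count was 1 with no filter on low counts and 1 with the replicate block. Over all genes it was 364 and 516. Leaving out each library in turn gave 14 to 20 calls at 24 h, 10 to 19 at 48 h and 0 to 1 at 72 h. Over all genes this gave 3102 to 4137, 3727 to 6004 and 102 to 677 calls. The replicate block gave 16 at 24 h, 14 at 48 h and 0 at 72 h, beside 3186, 4404 and 120 of all genes. Same-numbered bulk libraries share only a number, and 2 of 18 shams deviated most like the UNx library of their own number. Among the differences called without the score, sign changes came with it for Dkc1 (0.0391) and Nop10 (-0.0531) at 24 h and Polr1c (0.0444) at 48 h. For 24 h to 48 h they came for Polr1c (0.215), Ubtf (-0.0954) and Nop14 (-0.0854). Some genes not called changed sign as well, at 24 h for example Ncl (-0.189 to 0.0822) and Polr1c (0.0573 to -0.197). Polr1c at 48 h was also 0.0247 without UNx replicates 1 to 5 and 0.0691 with the score over all 36 libraries, and for 48 h to 72 h -0.0044 with the score and -0.0110 without those replicates. In the nuclei 0 of the 36 genes were called in every alternative run. The cause of these shifts was not tested.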
